A study of Mus musculus with 7 samples.

Results

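Heat shock and unfolded protein response genes were examined in epicardial explants of mouse embryos that lack lamin B1. The set holds 46 genes taken by name out of 22738 gene rows in each count table. Every one of the 46 had its own row and passed the filter on low counts, as did 10775 rows in all. By role, 16 encode cytosolic chaperones or their transcription factors, 3 encode mitochondrial chaperones and 27 belong to endoplasmic reticulum (ER) stress pathways.

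There were 3 Lmnb1-/- libraries and 4 wild type libraries. All came from ventricles of E12.5 embryos, on a mixed background of C57BL/6, 129S4Sv/Jae and 129S6/SvEvTac. The hearts were cultured on gelatin for 48 hours and then removed, and the cells that had grown out were kept for another 72 hours before total RNA was taken. The labels give the Lmnb1 genotype without describing the allele, give no treatment, and do not say whether the replicates came from separate embryos or litters. The series addresses how lamin B1, a protein of the nuclear lamina, bears on the timing of epicardial migration.

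Cells keep proteins folded by separate systems in each compartment. In the cytosol, heat shock factors bind heat shock elements and drive genes for HSP70, HSP90 and their cochaperones. In the ER, 3 sensors, encoded by Ern1 (IRE1), Eif2ak3 (PERK) and Atf6, detect unfolded protein. IRE1 splices the mRNA of Xbp1, PERK phosphorylates eIF2alpha and so favours translation of Atf4, and ATF6 is cut to release a transcription factor. Their targets are ER chaperones, disulphide isomerases, and genes of ER-associated degradation, which returns misfolded protein to the cytosol. Much of this regulation is by translation, splicing or cleavage, which counts per gene do not record.

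Lmnb1 checked the labels: it had 4, 2 and 4 counts in the Lmnb1-/- libraries, against 463, 185, 488 and 567 in wild type. Totals of the first count column ran from 1024898 to 3066936 per library, and wild type replicate 2 was the shallowest, with 3 counts worth 3.1 CPM (counts divided by the TMM-scaled library total in units of 1e6 counts). The Xist-expressing libraries were wild type replicates 1 and 3, with 595 and 642 Xist counts. All 3 Lmnb1-/- libraries had 0 to 7 Xist counts and 705 to 1132 counts of Y-linked genes. Wild type replicates 2 and 4 had 0 Xist counts, with 383 and 949 Y-linked counts. Sex was therefore unevenly spread between the genotypes. All 10 epicardial markers listed passed the filter, 3 with fold changes above 0, 7 below and none called, and their summed level was 1258 to 1558 CPM in Lmnb1-/- libraries and 1651 to 2317 CPM in wild type libraries. Smooth muscle markers, 8 of 8 with negative fold changes and 5 called lower, summed to 8089 to 8836 CPM in Lmnb1-/- and 10853 to 12111 CPM in wild type libraries. Leukocyte markers summed to 24.8 to 382 CPM in Lmnb1-/- and 42.4 to 218 CPM in wild type libraries, and were highest in Lmnb1-/- replicates 2 and 3 and wild type replicate 4. These are bulk samples, so fewer cells of a type and less RNA per cell cannot be told apart.

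No heat shock or unfolded protein response gene passed the test for a difference between Lmnb1-/- and wild type explants. With p-values from edgeR's quasi-likelihood F-test, Benjamini-Hochberg adjusted over all genes, 0 of the 46 had an adjusted p under 0.05, where 0.705% of all 10775 tested genes did. Of those 76, 39 were higher and 37 lower in Lmnb1-/- explants, and scaling by library totals alone gave 47 higher and 26 lower. The smallest adjusted p was 0.146, for Pdia6. An unadjusted p under 0.05 was found for 6 of the 46, or 13%, against 13.6% of all tested genes. The count became 13 (28.3%, against 18.4% of all genes) when wild type replicate 1 was left out and 2 (4.35%, against 9.64%) when Lmnb1-/- replicate 2 was. DESeq2 also called 0 of the 46 (1.62% of all genes), with 4 at an unadjusted p under 0.05, or 8.70%, against 9.98% of all genes. CPM ranges of the 3 Lmnb1-/- and 4 wild type libraries did not overlap for 7 of the 46, or 15.2%, against 13.3% of all genes.

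In the fit without covariates, the spread between libraries bounded most of these differences. A blocking term, described below, turned 31 of the 46 fold changes or moved them by over 1.5 times. How many of all tested genes it turned or moved was not counted, so this is not a trait of the 46. Some of these moves were small on the log2 scale, as for Hspa4, from 0.060 to 0.0086. The 95% interval of the fold change lay within 2-fold for 41 of the 46 genes, or 89.1%, and within 1.5-fold for 31, or 67.4%. Among all tested genes these shares were 80.8% and 44.9%. The 5 genes whose interval reached past 2-fold in the first count column were Hsf1, Hspa8, Hspa1a, Hspa1b and Chac1. On the sum of both count columns, Ppp1r15a stood in place of Hspa8. The median log2 fold change was 0.09 over the 46 genes and -0.02 over all tested genes, and 32 of the 46 (69.6%) were above 0, against 47.6% of all genes.

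**Figure D1:**
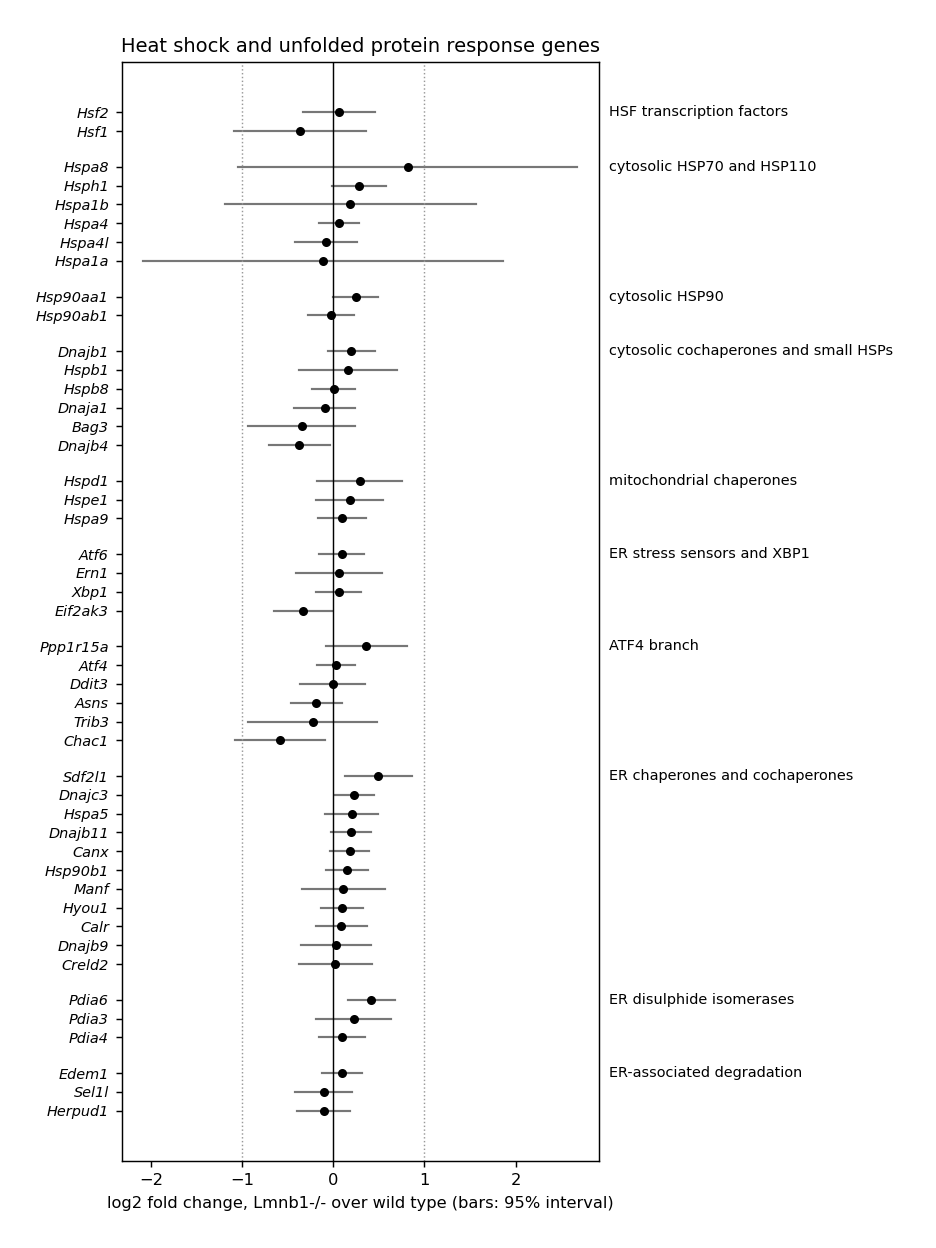
Log2 fold changes, Lmnb1-/- over wild type, of the 46 genes by role, with 95% intervals from edgeR as bars and dotted lines at 2-fold. All 14 ER chaperone and disulphide isomerase genes lie above 0, and the widest intervals are those of Hspa8, Hspa1a and Hspa1b.

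ER chaperones and disulphide isomerases shared the same sign. All 11 chaperones and cochaperones and all 3 isomerases had log2 fold changes above 0, from 0.02 for Creld2 to 0.50 for Sdf2l1, with a median of 0.17, where the median of all tested genes was -0.02. Among all tested genes 47.6% were above 0. None of the 14 passed the test over all genes. CPM ranges lay apart for 4 of them, Pdia6, Sdf2l1, Dnajc3 and Dnajb11, with the Lmnb1-/- libraries above in each (6.36% of all genes had ranges apart in that direction).

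Pdia6, a disulphide isomerase of the ER, had 798, 875 and 664 CPM in Lmnb1-/- replicates 1 to 3, against 642, 504, 573 and 615 CPM in wild type replicates 1 to 4. Every Lmnb1-/- library lay above every wild type library, by a small margin between Lmnb1-/- replicate 3 and wild type replicate 1. The log2 fold change was 0.41 (SE 0.12, 95% interval 0.16 to 0.67, adjusted p = 0.146). Sdf2l1, a component of ER chaperone complexes, had 47.6, 61.1 and 52.9 CPM in Lmnb1-/- libraries, against 45.2, 28.9, 34.6 and 40.5 CPM in wild type. Here too the groups lay apart, with wild type replicate 1 close to the lowest Lmnb1-/- library, and the log2 fold change was 0.50 (SE 0.17, adjusted p = 0.228). Dnajc3, a cochaperone of the ER that is also known as an inhibitor of PERK, had 385, 392 and 372 CPM in Lmnb1-/- libraries, against 333, 293, 313 and 363 CPM in wild type (log2 fold change 0.23, SE 0.10, adjusted p = 0.336). Dnajb11, an ER cochaperone of the HSP40 family, averaged 188 ± 10.8 CPM in Lmnb1-/- explants (SD, n = 3), against 164 ± 10.6 CPM in wild type (SD, n = 4). Its groups were separated by a few CPM (log2 fold change 0.20, SE 0.10, adjusted p = 0.434).

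The most abundant ER genes overlapped between the groups. Hspa5 encodes BiP, the HSP70 of the ER and the standard readout of ER stress, and it had 2193, 2335 and 1868 CPM in Lmnb1-/- libraries, against 2191, 1468, 1805 and 1950.3 CPM in wild type. Wild type replicate 1 came within a few CPM of Lmnb1-/- replicate 1, and the SD among wild type libraries, 302 CPM, exceeded the difference of the means (log2 fold change 0.20, SE 0.13, 95% interval -0.09 to 0.49, adjusted p = 0.539). Hsp90b1, the HSP90 of the ER (GRP94), had 1459, 1507 and 1424 CPM in Lmnb1-/- libraries, against 1524, 1232, 1221 and 1279 CPM in wild type. Wild type replicate 1 was the highest of all 7, and the other wild type libraries were the lowest (log2 fold change 0.15, SE 0.11, adjusted p = 0.556). The lectin chaperones of glycoprotein folding, Calr and Canx, averaged 2058 ± 199 and 1578 ± 79.8 CPM in Lmnb1-/- explants (SD, n = 3), against 1936 ± 321 and 1393 ± 83.6 CPM in wild type (SD, n = 4). Pdia3, the isomerase that partners them, had 1273, 848 and 669 CPM in Lmnb1-/- libraries, against 828, 776, 868 and 710.1 CPM in wild type. Lmnb1-/- replicate 1 alone stood high and the other two lay within or below the wild type range (log2 fold change 0.23, SE 0.19, adjusted p = 0.634). The remaining members of this group were Hyou1 (an HSP110 relative of the ER), Manf and Creld2 (small proteins induced by ER stress), Dnajb9 (an HSP40 that acts on IRE1) and the isomerase gene Pdia4, with log2 fold changes of 0.02 to 0.11.

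**Figure D2:**
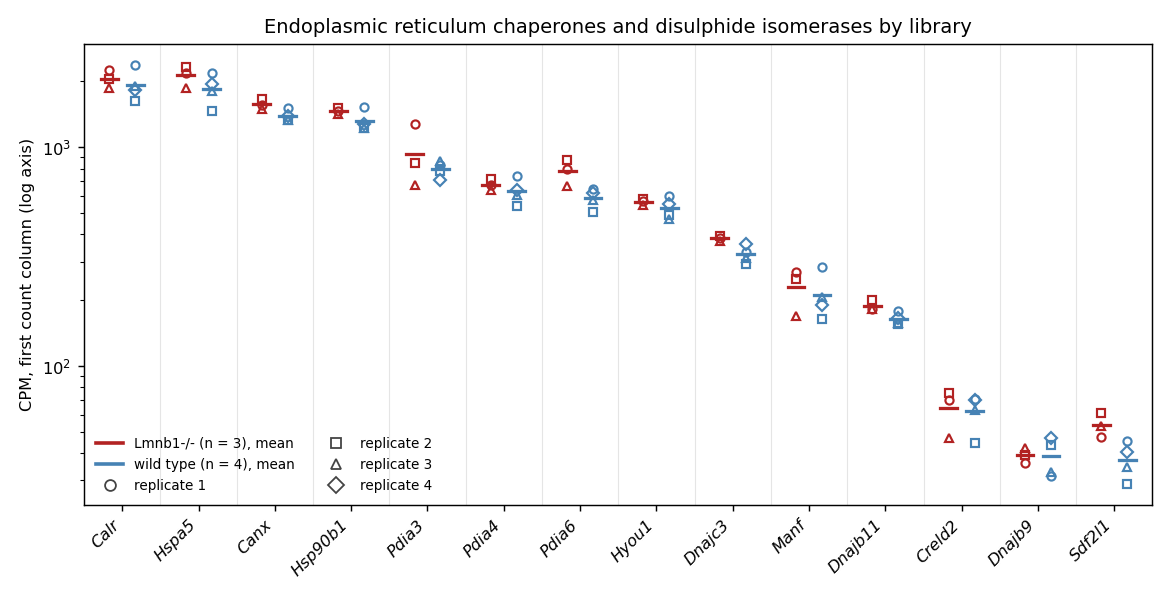
CPM of the 14 ER chaperone and disulphide isomerase genes in each library on a log axis, with bars at group means (3 Lmnb1-/- and 4 wild type libraries). Pdia6, Sdf2l1, Dnajc3 and Dnajb11 have ranges that lie apart, and in Hspa5 and Hsp90b1 wild type replicate 1 is among the highest libraries.

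The shared sign was less even within sets of libraries. The mean of centred log2 CPM over the 14 genes was 0.16, 0.19 and -0.04 in Lmnb1-/- replicates 1 to 3, against 0.09, -0.25, -0.13 and -0.03 in wild type replicates 1 to 4. Wild type replicate 1 thus lay above Lmnb1-/- replicate 3, and wild type replicate 2, the shallowest library, was the lowest. The name of each count table ends in a number, called the library number here, whose meaning the labels do not give. Libraries with neighbouring numbers form 3 groups, although the labels name no batch. Between Lmnb1-/- replicate 1 and wild type replicate 1, the median log2 difference was 0.01, with 8 of the 14 above 0. Between Lmnb1-/- replicates 2 and 3 and wild type replicate 4 it was 0.10, with 12 of the 14 above 0. Of all 10775 tested genes, 5227 were above 0 in the former comparison and 5321 in the latter. Wild type replicates 2 and 3 form the remaining number group, which holds no Lmnb1-/- library. Under a blocking term for number groups, these replicates therefore do not bear on the estimated genotype difference. With these number groups as a blocking term, the median log2 fold change was 0.07, and 10 of the 14 were above 0. Under that term Hspa5 was at 0.062, Sdf2l1 at 0.30 and Pdia6 at 0.32. Without Lmnb1-/- replicate 1 it was 0.13, with 11 of the 14 above 0. What set the neighbouring numbers apart was not tested.

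Promoters of some of these ER genes carry the sequence that ATF6 is known to bind with NF-Y. RefSeq start sites of build GRCm38.p6 gave 44 windows for 38 of the 46 genes, each reaching from 250 bases before to 50 bases after the start. The other genes were Hsf1, Hspa8, Hsp90aa1, Hsp90ab1, Hspa9, Atf6, Hyou1 and Manf. The ER stress element, CCAAT, then 9 of any base, then CCACG, on either strand, was found in 7 of the 44 windows (15.9%), against 39 of 32851 windows of all genes (0.119%). All 7 belonged to ER chaperones or isomerases, of which 12 had a window, and it was not found in those of Pdia3, Pdia4, Sdf2l1, Dnajb9 and Dnajb11. They are shown because the ER folding genes are the ones that hold them, with the fixed letters in capitals, read 5′ to 3′ on the strand of the element.
Hspa5 chr2:34772025-34772043, plus strand: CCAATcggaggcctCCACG
Pdia6 chr12:17266491-17266509, plus strand: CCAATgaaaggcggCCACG
Dnajc3 chr14:118937827-118937845, plus strand: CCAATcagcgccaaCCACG
Hsp90b1 chr10:86705533-86705551, plus strand: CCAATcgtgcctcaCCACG
Hsp90b1 chr10:86705638-86705656, minus strand: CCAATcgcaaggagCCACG
Canx chr11:50325800-50325818, minus strand: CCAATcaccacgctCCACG
Creld2 chr15:88819520-88819538, minus strand: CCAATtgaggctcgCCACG
Calr chr8:84847075-84847093, plus strand: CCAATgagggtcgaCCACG

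All lay upstream of the start. The nearest was that of Hspa5, which ended 47 bases before the start, and the farthest was one of the pair of Hsp90b1, which ended 194 bases before it. Log2 fold changes of the 7 genes ran from 0.02 for Creld2 to 0.41 for Pdia6. The ERSE-II variant (ATTGG, any base, CCACG) was found in 2 windows, those of Herpud1 and Dnajb11, against 0.0365% of all windows. The unfolded protein response element TGACGTGG was found in none of the 44 windows, and in 0.676% of all windows. The bases before the Hspa5 start are given because this gene is the standard readout of ER stress. They are read on the plus strand at chr2:34771840-34772089, with the exact match to the ER stress element in capitals. Looser forms of the element were not searched for, here or in the other windows.
Hspa5: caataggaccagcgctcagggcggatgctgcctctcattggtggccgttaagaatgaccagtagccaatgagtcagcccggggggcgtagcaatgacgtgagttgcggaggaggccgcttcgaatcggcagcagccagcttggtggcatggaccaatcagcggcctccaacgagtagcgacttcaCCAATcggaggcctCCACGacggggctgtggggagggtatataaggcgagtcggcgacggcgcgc

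The ER stress sensors Atf6 and Ern1, and Xbp1, had overlapping ranges in the groups, and Eif2ak3 did not. Eif2ak3, encoding PERK, had 54.0, 54.4 and 41.1 CPM in Lmnb1-/- libraries, against 57.8, 69.2, 59.1 and 67.0 CPM in wild type. All 3 Lmnb1-/- libraries lay below the lowest wild type library, as in 6.92% of all genes, and the difference of -0.33 on the log2 scale (SE 0.15, adjusted p = 0.349) did not pass. Atf6 had 182, 222 and 189 CPM in Lmnb1-/- libraries, against 169, 200.4, 199 and 173 CPM in wild type (log2 fold change 0.09, SE 0.11, adjusted p = 0.763). Xbp1 had 138, 129.6 and 134 CPM in Lmnb1-/- libraries, all inside the wild type range of 107 to 141 CPM (log2 fold change 0.06, SE 0.11, adjusted p = 0.859). The counts do not separate spliced from unspliced Xbp1. Ern1, encoding IRE1, averaged 27.8 ± 2.24 CPM in Lmnb1-/- explants (SD, n = 3) and 27.4 ± 7.98 CPM in wild type (SD, n = 4).

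No member of the ATF4 branch passed the test, and Chac1 was the one with ranges apart. Atf4 itself had 255, 235 and 253 CPM in Lmnb1-/- libraries, against 255, 239, 243 and 232 CPM in wild type, with a log2 difference of 0.03 (SE 0.10, 95% interval -0.17 to 0.24, adjusted p = 0.918). Ddit3, which encodes the apoptosis-linked factor CHOP, had 28.9, 36.5 and 34.4 CPM in Lmnb1-/- libraries, against 31.3, 36.2, 36.9 and 29.1 CPM in wild type (log2 fold change -0.01, SE 0.16, adjusted p = 0.993). Neither gene differed by more than the spread within a group. Chac1, a glutathione-degrading enzyme that is a sensitive ATF4 target, had 10.3, 9.54 and 10.8 CPM in Lmnb1-/- libraries, against 14.4, 14.5, 15.4 and 16.9 CPM in wild type. The ranges lay apart with the Lmnb1-/- libraries below, on raw counts of 32, 17 and 21 against 33, 14, 41 and 40, and the log2 fold change was -0.59 (SE 0.23, 95% interval -1.07 to -0.10, adjusted p = 0.281). Ppp1r15a, encoding GADD34, which returns eIF2alpha to its unphosphorylated state, had 36.3, 33.1 and 22.6 CPM in Lmnb1-/- libraries, against 24.8, 31.0, 21.1 and 21.9 CPM in wild type. Its ranges overlapped (log2 fold change 0.36, SE 0.21, adjusted p = 0.465), and the second column held 27.5% of its counts, with 0.49 on the sum. Asns (asparagine synthetase) and Trib3 (a pseudokinase that inhibits ATF4) had log2 fold changes of -0.19 and -0.23. Trib3 varied widely, from 22.2 to 49.8 CPM in Lmnb1-/- and from 29.1 to 62.0 CPM in wild type libraries.

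A core of the ATF4 element, TGATGNAA on either strand, was found in the windows of Asns, Chac1, Trib3 and Herpud1, or 9.09% of the 44 windows against 3.97% of all windows. The ER-associated degradation genes overlapped between the groups. Edem1, which extracts misfolded glycoproteins, had 238, 222 and 243 CPM in Lmnb1-/- libraries, against 209.6, 214, 212 and 242 CPM in wild type (log2 fold change 0.09, SE 0.10, adjusted p = 0.725). Herpud1, a stress-induced part of the degradation complex, had 62.4, 83.0 and 81.2 CPM in Lmnb1-/- libraries, against 80.0, 80.6, 86.6 and 75.5 CPM in wild type. Lmnb1-/- replicate 1 was the lowest of all 7 (log2 fold change -0.11, SE 0.13, adjusted p = 0.770). Sel1l, the adaptor of the same complex, had a log2 fold change of -0.10.

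**Figure D3:**
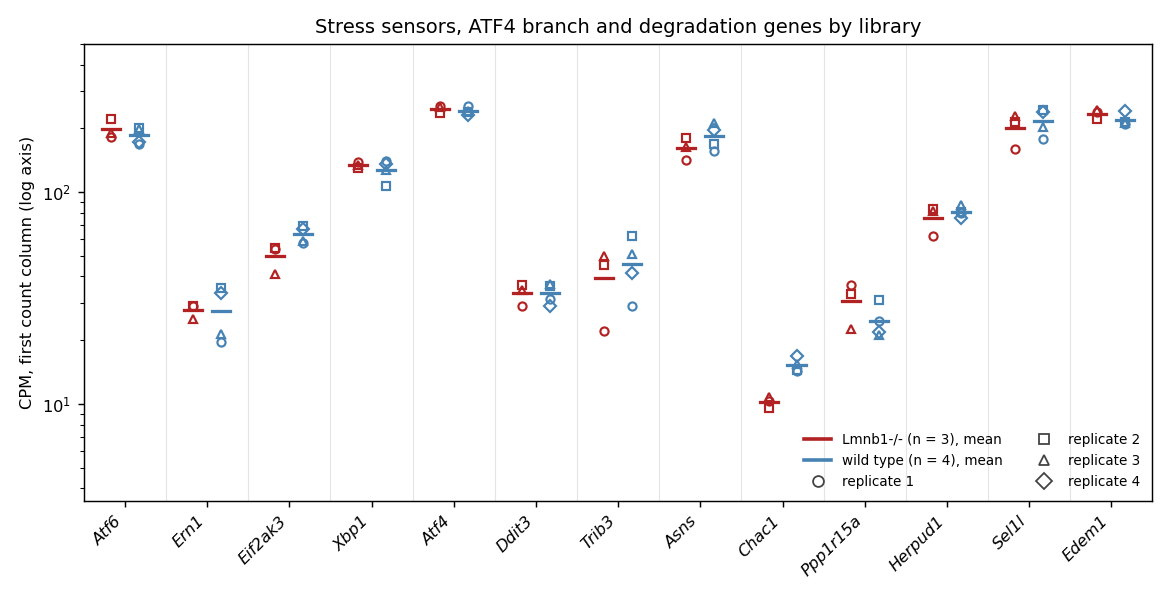
CPM of the ER stress sensors, Xbp1, the ATF4 branch and ER-associated degradation genes in each library on a log axis, with bars at group means (3 Lmnb1-/- and 4 wild type libraries). Chac1 and Eif2ak3 are the genes with ranges apart, and Atf4 lies between 232 and 255 CPM in all 7 libraries.

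Cytosolic heat shock genes had no shared direction: 9 of the 16 had log2 fold changes above 0 and 7 below, with a median of 0.03. For 7 of them more than 10% of the reads stood in the second count column, which the files do not name. It was taken to hold reads that match several places in the genome, which the files do not state, so levels of these genes are uncertain, and the sum of both columns is given beside the first for those described. In the second column Hspa1a and Hspa1b had nearly the same counts in every library, for instance 221 and 219 in Lmnb1-/- replicate 1, and a read shared by both appears to be counted for each.

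Hspa8, the constitutive cytosolic HSP70 (HSC70), had 96.3% of its counts in the second column. The first column gave 54.0, 249 and 245 CPM in Lmnb1-/- libraries, against 63.1, 64.1, 70.0 and 203 CPM in wild type. Lmnb1-/- replicates 2 and 3 and wild type replicate 4 were high and the other 4 libraries low, a division that crosses genotype, and the difference of 0.82 on the log2 scale (SE 0.73, adjusted p = 0.686) did not pass. The sum of both columns had overlapping ranges, at 2731, 3182 and 3011 CPM in Lmnb1-/- libraries, against 2905, 2503, 2685 and 3016 CPM in wild type. On this sum the log2 fold change was 0.10 (SE 0.11, 95% interval -0.15 to 0.34, adjusted p = 0.746). The first column held 6.37%, 6.66% and 5.50% of Hspa8 reads in Lmnb1-/- replicates 2 and 3 and wild type replicate 4, and 1.62 to 2.12% in the others. Of 2521 rows with at least 100 counts over both columns in every library, 2 had a share more than doubled in just those 3 libraries, Hspa8 and a row listed as LOC624853, and 0 had the reverse. These 3 libraries carry the highest library numbers and the highest leukocyte marker levels. In the same order, their summed cardiomyocyte markers (552, 576 and 773 CPM) and erythroid markers (87.5, 232 and 197 CPM) were also highest. The next library, wild type replicate 2, was close, at 540 and 83.7 CPM. The part of any of these in the result was not tested.

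The stress-inducible HSP70 genes Hspa1a and Hspa1b varied widely among wild type libraries. On the sum of both columns Hspa1a had 67.8, 81.3 and 128 CPM in Lmnb1-/- libraries, against 101, 31.2, 28.8 and 173 CPM in wild type. Both the lowest and the highest libraries were wild type, and all Lmnb1-/- libraries lay between them (log2 fold change 0.09, SE 0.71, 95% interval -1.71 to 1.89, adjusted p = 0.975). Hspa1b moved with it on the same sum, with 72.5, 95.4 and 139.5 CPM in Lmnb1-/- libraries, against 107, 38.0, 33.1 and 180.4 CPM in wild type. The genes share most of their reads, so this is not a second observation. In the first column alone Hspa1a had 36, 21 and 38 counts in Lmnb1-/- libraries, against 42, 1, 12 and 78 counts in wild type. Its coefficient of variation among wild type libraries was 102% there, where the median of all tested genes was 17.6%.

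**Figure D4:**
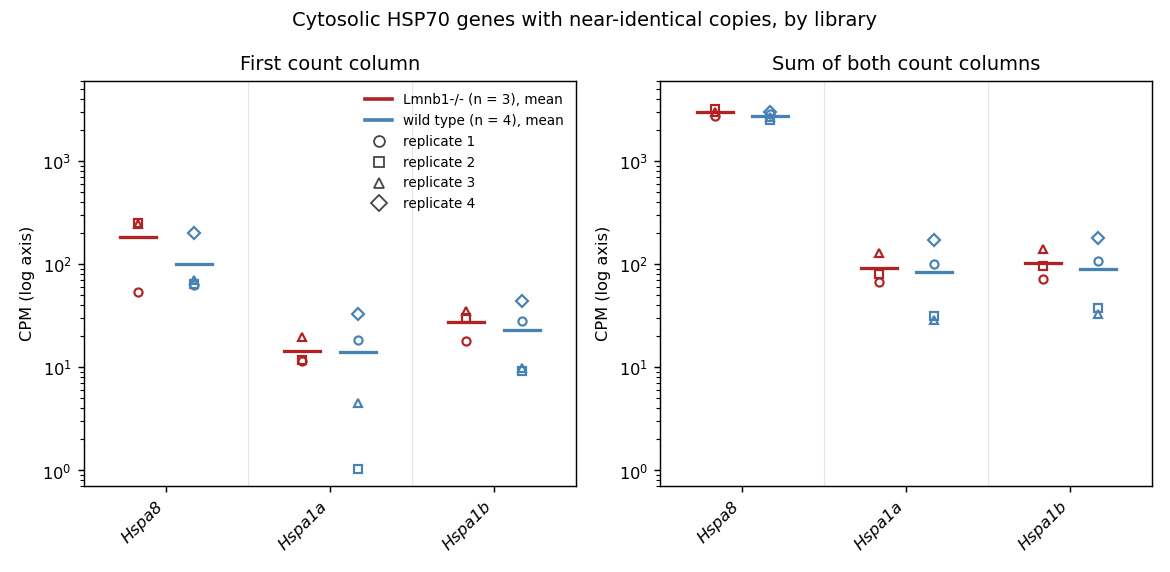
CPM of Hspa8, Hspa1a and Hspa1b in each library on log axes, from the first count column (left) and the sum of both (right), with bars at group means (3 Lmnb1-/- and 4 wild type libraries). Hspa8 divides into high and low libraries in the first column and lies between 2503 and 3182 CPM in the sum, whereas Hspa1a and Hspa1b stay scattered in both.

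The HSP110 gene Hsph1, a nucleotide exchange factor for HSP70, had 83.0, 95.4 and 100.2 CPM in Lmnb1-/- libraries, against 81.3, 70.3, 64.02 and 86.9 CPM in wild type. Lmnb1-/- replicate 1 lay below wild type replicate 4, so the ranges overlapped (log2 fold change 0.29, SE 0.14, adjusted p = 0.384). Its relatives Hspa4 and Hspa4l had log2 fold changes of 0.06 and -0.08. The inducible HSP90 gene Hsp90aa1 had 256, 228 and 209.7 CPM in Lmnb1-/- libraries, against 224, 198, 182 and 178 CPM in wild type (log2 fold change 0.25, SE 0.12, adjusted p = 0.370). Wild type replicate 1 again lay within the Lmnb1-/- range, and the sum of both columns gave 0.28 (SE 0.12, adjusted p = 0.350). The constitutive Hsp90ab1 had 1438, 1256 and 1069 CPM in Lmnb1-/- libraries, against 1354, 1247, 1334 and 1162 CPM in wild type (log2 fold change -0.02, SE 0.12, adjusted p = 0.955). On the sum of both columns it was at -0.0081.

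Among the cochaperones, Dnajb1, the HSP40 partner of HSP70, had 100.6, 101 and 100.7 CPM in Lmnb1-/- libraries, against 96.6, 72.3, 85.5 and 93.2 CPM in wild type. The Lmnb1-/- libraries were all above the wild type range, with a log2 difference of 0.20 (SE 0.12, adjusted p = 0.498). Dnajb4, another HSP40, had 118, 115.5 and 92.5 CPM in Lmnb1-/- libraries, against 128, 115.7, 182 and 132 CPM in wild type. Wild type replicate 3 stood high and the ranges met (log2 fold change -0.37, SE 0.15, adjusted p = 0.315). Bag3, an HSP70 cochaperone of selective autophagy, had a log2 fold change of -0.35 (SE 0.27), and the small heat shock gene Hspb8 of 0.00. Dnaja1, an HSP40 with 77.7% of its counts in the second column, was at -0.10 in the first column and -0.20 on the sum (SE 0.12, adjusted p = 0.483). Hspb1, a small heat shock gene with 74.3% of its counts there, was at 0.16 in the first column and 0.04 on the sum (SE 0.15, adjusted p = 0.933). The transcription factor gene Hsf1, the main driver of the heat shock response, had 10.6, 18.5 and 11.3 CPM in Lmnb1-/- libraries, against 16.5, 27.9, 18.1 and 9.28 CPM in wild type (log2 fold change -0.36, SE 0.34, adjusted p = 0.670). Hsf2 had 44.1, 39.3 and 30.8 CPM in Lmnb1-/- libraries, against 40.5, 43.4, 28.6 and 37.1 CPM in wild type. Both ranges overlapped (log2 fold change of Hsf2 0.06, SE 0.18, adjusted p = 0.924).

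Mitochondrial chaperones had log2 fold changes of 0.10 to 0.29, and none passed. Hspd1, the HSP60 chaperonin, had 265, 247 and 188 CPM in Lmnb1-/- libraries, against 264, 133, 180.4 and 178 CPM in wild type (log2 fold change 0.29, SE 0.21, adjusted p = 0.586). Hspe1, its lid HSP10, had 65.0, 58.3 and 70.9 CPM in Lmnb1-/- libraries, against 72.6, 43.4, 59.9 and 49.3 CPM in wild type (log2 fold change 0.18, SE 0.17, adjusted p = 0.681). The second column held 63.2% of the counts of Hspd1 and 56.2% of those of Hspe1, so these levels are uncertain too, and the sum of both columns gave log2 fold changes of 0.31 and 0.24. In the first column of both genes wild type replicate 1 was among the highest libraries and wild type replicate 2 was the lowest. Hspa9, the mitochondrial HSP70, had a log2 fold change of 0.10. The windows of Hspd1 and Hspe1 overlap, and both hold the same heat shock element, GAA, TTC and GAA each 2 bases apart on either strand, which was found in 4 of the 44 windows (9.09%) and in 0.603% of all windows. Hsph1 was the only other member with it, in both of its windows and after the start in each. The bases before the Hspd1 start are given because the element that heat shock factors are known to bind is doubled there, on the minus strand at chr1:55087933-55088182, with the alternating units of a pair of overlapping matches in capitals.
Hspd1: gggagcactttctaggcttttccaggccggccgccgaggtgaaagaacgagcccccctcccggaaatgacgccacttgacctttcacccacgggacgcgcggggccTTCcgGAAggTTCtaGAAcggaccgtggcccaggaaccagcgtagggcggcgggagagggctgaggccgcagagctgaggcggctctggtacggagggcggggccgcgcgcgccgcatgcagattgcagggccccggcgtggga

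Levels of the 46 genes could be ordered per length, as CPM of both columns divided by transcript length in kilobases. The unnamed second column held 96.3% of Hspa8 counts and 84.1% of Hsp90aa1 counts, so their places rest on it. In the first column alone Hspa8 averaged 183 CPM in Lmnb1-/- and 100 CPM in wild type libraries, against 2058 and 1936 CPM for Calr. Hspa8 came first in both groups, at 1348 ± 103 in Lmnb1-/- explants (SD, n = 3) and 1259 ± 104 in wild type (SD, n = 4). Calr followed with 807 ± 77.8 in Lmnb1-/- and 758 ± 121 in wild type, and Hspa5 with 667 ± 72.8 in Lmnb1-/- and 579 ± 94.4 in wild type. The next were Hsp90ab1, Hsp90b1, Hsp90aa1 and Canx, in the same order in both groups. Neighbours in this order were often within each other's spread, as Pdia3, Pdia6 and Pdia4 were. The ER sensor gene Ern1 was the lowest in both, at 3.27 ± 0.257 in Lmnb1-/- and 3.22 ± 0.941 in wild type. Sdf2l1 moved furthest among the ranks, being 24th in Lmnb1-/- and 33rd in wild type.

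Other genes of the same pathways gave 1 call among 105 tested, or 0.952%, against 0.705% of all tested genes. In the list of cytosolic chaperonin and cochaperone genes, 1 of 28 was called lower, Hspb7, and 0 were called higher. Most of this list went the other way: 20 of the 28 had log2 fold changes above 0 and 8 below, with a median of 0.20. Among all tested genes 47.6% were above 0. An unadjusted p under 0.05 in edgeR was found for 9 of the 28, against 13.6% of all tested genes. The 28 include the 8 chaperonin subunits described below. Hspb7, a small heat shock protein of muscle, had 15.4, 15.7 and 20.0 CPM in Lmnb1-/- libraries, against 30.4, 31.0, 34.6 and 29.9 CPM in wild type. All Lmnb1-/- libraries lay below the wild type range, and the log2 difference was -0.89 (SE 0.18, adjusted p = 0.0466). The call is narrow: it was lost on leaving out wild type replicate 2, 3 or 4 or any single Lmnb1-/- library (adjusted p 0.0645 to 0.207), and when number groups entered as a blocking term (adjusted p = 0.0918). Smooth muscle markers were lower in the same libraries, as given above, and their part in the result was not tested. The other muscle-associated small heat shock genes of the list, Hspb2 and Cryab, were picked with their values known, at -0.54 and -0.09 on the log2 scale.

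The 8 subunits of the cytosolic chaperonin TRiC, which folds actin and tubulin, were picked out after their values were seen. All had log2 fold changes above 0, from 0.13 for Tcp1 to 0.33 for Cct8, and none passed (smallest adjusted p = 0.178). Cct8 had 710.0, 666 and 626 CPM in Lmnb1-/- libraries, against 594, 493, 533 and 505 CPM in wild type.

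None of the other lists held a called gene. In the ATF4 target list 0 of 23 passed, 9 were above 0 and 14 below, and the median was -0.05 on the log2 scale. The smallest p-values there were those of Gpt2, an alanine aminotransferase, and Cebpb, a transcription factor, with log2 fold changes of -0.52 and -0.41 (adjusted p = 0.152 and 0.255). Among 14 further genes of ER folding and oxidation the median was 0.01, with the cochaperone Dnajc1 at -0.31 and the oxidase Ero1l at 0.28. The 20 further genes of degradation and translocation had a median of 0.07, with Sec61b, a subunit of the translocon, at 0.29. The 12 genes of ER stress signalling had a median of -0.12, with Eif2s1 (eIF2alpha) at 0.26 and Ppp1r15b at -0.17. Mitochondrial chaperones and proteases had a median of 0.08 over 8 genes, with Yme1l1 and Clpp at 0.14 and 0.19. Medians of the lists thus lay on both sides of that of all genes, -0.02.

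**Figure D5:**
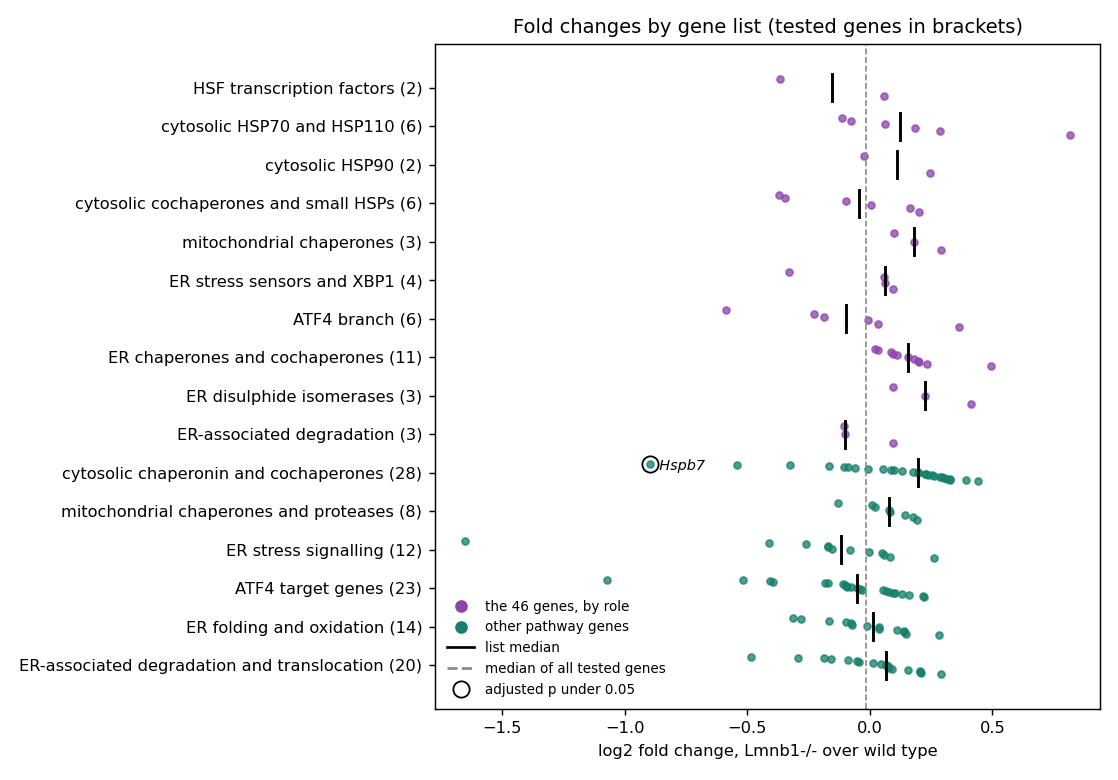
Log2 fold changes, Lmnb1-/- over wild type, of every tested gene in the 10 role groups of the 46 genes and the 6 lists of other pathway genes, with list medians as bars. The circle marks Hspb7, the single called gene, at -0.89, and the ER chaperone and isomerase groups are wholly above 0.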

How the data were processed

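RNA was sequenced from 7 explant libraries made with the TruSeq RNA v2 kit, per the labels. TopHat, edgeR and build mm9 are named in the submitters' processing notes, and the annotation and counting program are not given in the sources used here. The deposited tables hold 2 unnamed columns of whole-number counts per gene, not normalized. The first was used, and the second held 16.6 to 19.6% of each library's counts. Members and lists were chosen with earlier results of these data known. Members given in every library were the 2 of smallest p per role, plus Hspa1a, Hspa1b, Hspa5, Hspa8, Hsp90b1, Atf4, Ddit3 and Xbp1. From other lists the called genes or the 2 of smallest p are named, except 1 gene that is not reported here.

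Counts were filtered with filterByExpr, scaled by TMM and tested with edgeR's robust quasi-likelihood test without covariates (edgeR 4.0.16, R 4.3.3). Standard errors are the fold change over the square root of F, and intervals use the moderated degrees of freedom. Library scores use log2 CPM with a prior count of 2. Transcript lengths are means over GENCODE M21 transcripts paired with RefSeq mRNAs. The p-values measure the spread between these libraries, which may be technical. Replicate pairs differed beyond counting noise, with chi-square per degree of freedom of 2.22 to 7.71. Alternatives were RLE, library totals, no filter, DESeq2 1.42.0, limma voom (3.58.1), a replicate block, a number-group block (a gap over 2 in library number starts a group), the sum of both columns, removal of the wild type libraries that express Xist, and leaving out each library.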

Additional observations from a re-analysis of the deposited data

Results flagged for a closer look

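In 7 of 57 wild type groups of 4 libraries, 1 library stood far from the other 3. The rule has a nominal rate of about 1 in 20, but the groups are not independent. All use the same 4 libraries, and some genes enter both by the first column and by the sum. The share flagged among all genes was not counted, so no excess is shown. Hspa8 in the first count column was highest in wild type replicate 4, at 203 CPM. Edem1 was also highest there, at 242 CPM against 209.6 to 214 CPM in the others. Wild type replicate 1 was highest for Hspb8 at 149 CPM, and, on the sum of both columns, for Hsp90aa1 at 1149.7 CPM and Hspd1 at 569 CPM. On the same sum Hspb1 was highest in wild type replicate 3, at 53.1 CPM, and Ppp1r15a in wild type replicate 2, at 40.5 CPM against 21.3 to 24.2 CPM in the others.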

How the results depend on the processing

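None of the 46 genes was called under any alternative, and the smallest adjusted p among them ran from 0.0658 (DESeq2, Pdia6) to 0.479 (without Lmnb1-/- replicate 2). Over all genes, against 76 calls, DESeq2 called 175, no filter on low counts 180 and the sum of both columns 44. Leaving out 1 library gave 3 to 279: wild type replicate 1 279, replicate 2 40, replicate 3 4, replicate 4 28, and Lmnb1-/- replicate 1 4, replicate 2 3, replicate 3 13. The same exclusions gave 2 to 13 of the 46 at an unadjusted p under 0.05 (4.35% to 28.3%, against 9.64% to 18.4% of all genes). The 14 ER folding genes had 10 to 14 above 0, with a median of 0.07 to 0.24.

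The labels do not say whether replicate numbers pair the samples. Deviations of same-numbered replicates correlated at 0.264, -0.158 and -0.0898, too few pairs to decide it. Pairs within a number group were at 0.264, 0.193 and 0.332, and all others at -0.45 to 0.158. What lay behind these values was not tested. With the replicate block 77 genes were called, 35 of them shared with the 76, and Hspb7 had an adjusted p of 0.0709. Hspb7 was also lost with library totals (0.0550), the sum of both columns (0.0506), the number-group block (0.0918) and the removal of the libraries that express Xist (0.126). With the number-group block 31 of the 46 turned or moved by over 1.5 times, 17 of them toward 0 with their sign. How many of all tested genes did so was not counted. Among the 17 were Hspa8 at 0.097, Hspa5 0.062, Hsph1 0.11, Sdf2l1 0.30 and Dnajc3 0.13. Under the same block Hspa1a was at -0.90 (adjusted p 0.218 in edgeR). On the sum of both columns Hspa8 was at 0.10.

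Signs turned for genes near 0 or with wide spread, and the cause was not tested. With library totals, turned values were Ddit3 0.038 and Hsp90ab1 0.023. With voom, turned values were Creld2 -0.0052 and Hspa1a 0.42. With the number-group block, turned values were Creld2 -0.12, Ddit3 0.11, Dnajb9 -0.032, Hsf1 0.045, Hsp90ab1 0.037, Hspa1b -0.51, Hspa4l 0.036, Hspb8 -0.050, Hyou1 -0.016, Pdia4 -0.016 and Xbp1 -0.035. With the replicate block, turned values were Hspa1a 0.85 and Hspb8 -0.012. On the sum of both columns, turned values were Hspa1a 0.091. Without the libraries that express Xist, turned values were Ddit3 0.047, Dnajb9 -0.22, Ern1 -0.29, Hsf2 -0.049, Hsp90ab1 0.058 and Hspa1b -0.15. Leaving out 1 library gave ranges across 0 for Creld2 (-0.094 to 0.21), Ddit3 (-0.075 to 0.095), Dnaja1 (-0.17 to 0.0031), Dnajb9 (-0.060 to 0.17), Ern1 (-0.069 to 0.22), Herpud1 (-0.18 to 0.024), Hsf2 (-0.074 to 0.19), Hsp90ab1 (-0.13 to 0.087) and Hspa1a (-0.45 to 0.68). The others were Hspa1b (-0.11 to 0.73), Hspa4 (-0.0053 to 0.12), Hspa4l (-0.18 to 0.029), Hspb1 (-0.063 to 0.36), Hspb8 (-0.020 to 0.074), Manf (-0.023 to 0.29), Pdia3 (-0.069 to 0.42), Sel1l (-0.20 to 0.043) and Trib3 (-0.45 to 0.089). Counting depth limits the low genes: 3 counts stood for 0.965 to 3.1 CPM.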

Other observations

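Creb3l1, an ER-resident transcription factor of the ATF6 family, was named after its values were seen. It had 13.2, 4.49 and 8.22 CPM in Lmnb1-/- libraries, against 17.4, 105, 9.41 and 4.22 CPM in wild type replicates 1 to 4, so that wild type replicate 2 alone was high (log2 fold change -1.65, SE 1.30, adjusted p = 0.643 in edgeR). Nupr1, a stress-induced chromatin protein and ATF4 target, likewise named after its values were seen, had 28.3, 50.5 and 39.1 CPM in Lmnb1-/- libraries, against 32.2, 87.8, 137 and 67.5 CPM in wild type (log2 fold change -1.07, SE 0.52, adjusted p = 0.443 in edgeR).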
